A study of Mus musculus with 12 samples.

Results

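The cytosolic ribosomal protein genes are described here in sorted cells of the embryonic mouse spinal cord. Members were the rows of the deposited count table whose symbol is Rpl or Rps followed by a number, with at most a short suffix, together with Rplp0, Rplp1, Rplp2 and Rpsa. Pseudogene symbols ending in -ps were left out. The rule took 88 of 30740 gene symbols, of which 37 carry small-subunit names and 51 large-subunit names. It also takes paralogues such as Rpl7l1, Rpl22l1 and Rps27l. A further 3 symbols (Rps12l1, Rps3a2 and Rps3a3) are annotated as pseudogenes, with a sequence nearly that of another member.

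RNA was sequenced from ventral spinal cord cells of CB6F1/J embryos at E12.5 (embryonic days), sorted on the Hb9:GFP reporter, in which Mnx1 (Hb9) regulatory sequence drives GFP in spinal motor neurons. The GFP-positive sort gave 5 libraries from controls and 5 from Arhgap35 knockouts, and the GFP-negative sort gave 1 of each genotype. Arhgap35, also called p190, encodes a GTPase-activating protein. The extraction protocol allows heterozygous (p190+/-) as well as wild-type littermates as controls, whereas the sample titles call them wild type, and its word pulled is read here as pooled tissue. Every group carried the reporter, and GFP-negative libraries are also labelled motor neuron. Separate litters or animals are not stated for the replicates, and a p-value here reflects only how these samples scatter, which may be technical.

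Ribosomal proteins assemble with ribosomal RNA in the nucleolus into a small subunit, which reads the messenger RNA, and a large subunit, which joins amino acids. The genes are held near a common level in most cells, and their mRNAs begin with a run of pyrimidines (the TOP motif, for terminal oligopyrimidine) through which growth signals control their translation. Most of the genes also have processed pseudogenes, intronless copies of the mRNA elsewhere in the genome, so short reads from the gene and its copies can be hard to tell apart.

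The start of the transcript is the feature that these genes are known to share. The windows below show it for 6 members that hold the tract at the annotated start and for 2 that do not, Rpl7l1 and Rps9. Each window runs from 10 bases before the RefSeq start to 20 bases from it (GRCm38.p6), on the gene's strand, and capitals mark the unbroken run of C or T that begins at the start. A tract was counted where the start base is C and at least the next 4 bases are C or T.
Rpl15 (chr14:18270967-18270996, minus strand): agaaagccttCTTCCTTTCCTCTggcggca
Rpl28 (chr7:4792955-4792984, plus strand): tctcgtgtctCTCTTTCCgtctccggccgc
Rpl35 (chr2:39005112-39005141, minus strand): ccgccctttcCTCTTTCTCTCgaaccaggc
Rps10 (chr17:27635225-27635254, minus strand): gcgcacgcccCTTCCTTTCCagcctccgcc
Rps18 (chr17:33955646-33955675, minus strand): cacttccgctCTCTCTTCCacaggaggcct
Rps6 (chr4:86857348-86857377, minus strand): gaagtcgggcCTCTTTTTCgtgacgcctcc
Rpl7l1 (chr17:46782637-46782666, minus strand): gctgcgcaagCgcagtagctgaagcaccgg
Rps9 (chr7:3704031-3704060, plus strand): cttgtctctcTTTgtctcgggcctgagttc

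Of the 63 members with a RefSeq start window, 13 (20.6%) began with the tract, against 3.01% of all 27025 genes of the promoter table. The 13 were Rpl14, Rpl15, Rpl28, Rpl35, Rpl35a, Rpl38, Rplp2, Rps10, Rps15a, Rps18, Rps21, Rps27 and Rps6. A longer tract, with at least 6 further C or T bases, began 10 of the 63 (15.9%) and 1.29% of all genes. Allowing the C to lie within 5 bases of the annotated start took 29 of 63 (46.0%) and 21.2% of all genes. Rps9 met this looser rule and Rpl7l1 did not. None of the 68 mitochondrial ribosomal protein genes with a window began with the tract, and 2 of 12 translation factor genes did (16.7%). A match is a match of letters at the annotated start, and 25 members had no window in the table.

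The copies are shown for Rpl3 and Rpl26, whose counts were split between member and copy in proportions that varied among libraries. Rpl3 lies at chr15:80077791-80091868 (minus strand) and Rpl3-ps1 at chrX:13202571-13203780 (plus strand). Rpl26 lies at chr11:68901583-68906989 (plus strand) and Gm15772, a processed pseudogene, at chr5:3236431-3236868 (plus strand). All are GRCm38 genes of GENCODE M21, and the stretches are 50 bases of coding sequence, with the base that differs in capitals.
Rpl3 (coding bases 32 to 81): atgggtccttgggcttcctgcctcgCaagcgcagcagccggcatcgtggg
Rpl3-ps1: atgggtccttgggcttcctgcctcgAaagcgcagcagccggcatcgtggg
Rpl26 (coding bases 152 to 201): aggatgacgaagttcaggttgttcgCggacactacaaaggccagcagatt
Gm15772: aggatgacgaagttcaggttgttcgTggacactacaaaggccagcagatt

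Libraries were read as 50-base single ends. Rpl3-ps1 differed from the coding sequence of Rpl3 at 2 of 1209 aligned bases, and 91.4% of the 50-base windows were identical in the 2 genes. Gm15772 differed from Rpl26 at 2 of 438 bases, with 74.3% of the windows identical, and Rps2-ps10 differed from Rps2 at 5 of 882 bases, with 74.9% identical. Over the whole coding sequence Rpl28 and Rpl28-ps1 (414 bases), Rpl15 and Rpl15-ps3 (615), Rps6 and Rps6-ps4 (750), Rpl31 and Rpl31-ps8 (378), and Rpl12 and Gm10275 (498) were identical. A read from such a stretch cannot be placed on 1 of the genes by its letters. Counts were therefore also summed over each member and the copies whose sequence it shares, here called a family sum, an alternative chosen after the data had been seen.

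Each library held 23.7 to 33.8 M estimated counts (median 25.1 M), and mitochondrial transcripts took 1.03 to 1.68%. A count of 3 corresponded to 0.0887 to 0.127 CPM (counts relative to library size), before scaling. The CPM levels of genes given here were scaled by TMM. The targeted gene, Arhgap35 (chr7:16493719-16614993), was at 161, 202, 178, 187 and 136 CPM in the control GFP-positive libraries, 98.6, 88.3, 103, 106 and 89.3 CPM in the knockout GFP-positive libraries, and 155 and 96.4 CPM in the GFP-negative libraries (control, knockout). The knockout libraries lay below every control library of the same sort. Its log2 fold change in GFP-positive cells was -0.83 (SE 0.0996, edgeR adjusted p = 0.024), with transcript remaining in every knockout library. With the replicate number as a block it was -0.82 (edgeR adjusted p = 0.162), and by DESeq2 the adjusted p was 6.15e-13. Leaving out 1 library at a time gave log2 fold changes from -0.91 to -0.77 and adjusted p from 0.000758 to 0.141, below 0.05 in 1 of 10 fits. Markers of motor neurons (Mnx1, Isl1, Chat and 4 others) summed to 1131 to 1418 CPM in GFP-positive libraries and 47.5 and 44.7 CPM in GFP-negative ones, and 7 of 7 were higher in GFP-positive cells.

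The members together took 1.24, 1.20, 1.22, 1.11 and 1.13% of all counts in the control GFP-positive libraries and 1.22, 1.25, 1.19, 1.16 and 1.15% in the knockout GFP-positive libraries. They took 1.57% in the control and 1.61% in the knockout GFP-negative library. The GFP-positive genotypes overlapped, and both GFP-negative libraries lay above all 10 GFP-positive ones. The mean was 1.18 ± 0.0569% in control and 1.20 ± 0.0415% in knockout libraries of that sort (SD, n = 5 each). With the copies added, the shares were 1.70 ± 0.0950% and 1.72 ± 0.0511%, against 2.30 and 2.32% in GFP-negative cells. Small-subunit members took 0.463% and 0.464% in control and knockout GFP-positive cells and 0.618 and 0.644% in GFP-negative cells. Large-subunit members took 0.715 and 0.731%, against 0.948 and 0.969%. For either subunit, both GFP-negative libraries lay above all 10 GFP-positive ones. In the length-normalised TPM, the share was 3.75 ± 0.154% and 3.81 ± 0.112% in control and knockout GFP-positive cells and 4.85 and 5.00% in GFP-negative cells. Leaving mitochondrial transcripts out of the totals gave 1.12 to 1.27% against 1.59 and 1.64%.

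**Figure D1:**
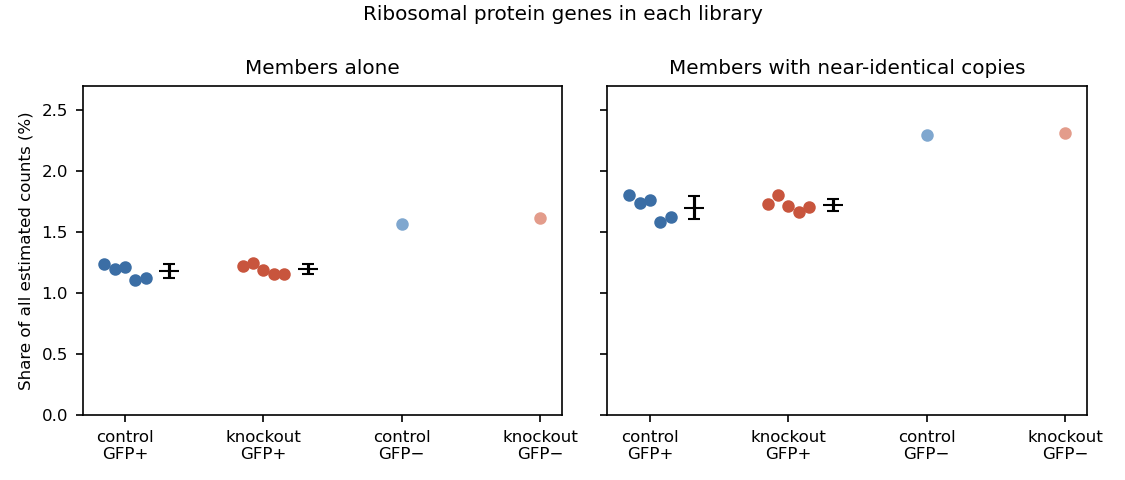
Share of all estimated counts taken by the members, in percent, for each of the 12 libraries by group, for the member symbols alone and with copies added. Both GFP-negative libraries (1.57 and 1.61% for the symbols alone) lie above the 10 GFP-positive ones (1.11 to 1.25%), and the genotypes overlap.

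Per length, 84 of the 88 members reached a mean of 1 TPM (transcript abundance per length) in control GFP-positive cells, from 16.8 to 1510 TPM with a median of 400 TPM. The highest was Rpl41, which encodes the shortest protein of the ribosome, at 1510 ± 117 TPM (SD, n = 5). Rpl13a (1030 ± 136 TPM), Rpl7a (1020 ± 54.6 TPM), Rps24 (992 ± 84.4 TPM) and Rpl23a (973 ± 68.4 TPM) followed, and these 4 do not differ beyond their SD. At the low end stood Rpl7l1 (28.6 ± 4.25 TPM), Rps6 (26.4 ± 4.36 TPM), Rps27 (23.4 ± 19.7 TPM), Rps13 (21.6 ± 7.34 TPM) and Rps3a3 (16.8 ± 37.3 TPM), which overlap within their SD. Rps6, the substrate of the S6 kinases, Rps13 and Rps27 are proteins of the small subunit. For each of these 3, a copy held most of the counts of the family: the member held 3.74% for Rps6, 4.07% for Rps13 and 3.43% for Rps27. Their low levels are thus levels of the symbol and not of the family. Rps3a3 was at 31.4 CPM in control GFP-positive library 4 and at 0 to 0.17 CPM in the other 4 of that group. Rpl10l, Rpl39l and Rpl3l, paralogues known from testis or muscle, were at 0 counts in 11, 8 and 11 of the 12 libraries and at most at 1, 3 and 4 counts.

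The spread among replicates was smaller for most members once their copies were added. In the files, 81 families reached a mean of 1 CPM and 67 of them had at least 1 copy, with 363 copies in all. The member symbol held under 50% of the family's counts in 25 families, under 10% in 4, and at least 95% in 37. Among the 81, the SD of log2 CPM within groups exceeded 0.3 for 10 member symbols and for none of the family sums, and its largest value was 1.56 for a symbol and 0.22 for a family. The median SD over the 81 was 0.105 for the symbols and 0.0844 for the sums. Over the families with copies, 51 of 67 had a smaller SD when summed. Some of these drops were slight, as for Rpl7a (0.0633 alone and 0.0631 summed).

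The largest SDs among members of at least 10 CPM belonged to Rps3a2, Rps2 and Rpl3. Rps2 encodes a protein of the small subunit at the entry of the mRNA channel. Rps2 was at 9.91, 334, 98.8, 224 and 358 CPM in the control GFP-positive libraries, 152, 217, 95.6, 252 and 171 CPM in the knockout GFP-positive libraries, and 10.2 and 189 CPM in the GFP-negative libraries (control, knockout). Its lowest and highest libraries were both control GFP-positive libraries. Summed with its copies it was at 423, 400.1, 421, 362 and 363 CPM in control, 389, 413, 404, 376 and 437 CPM in knockout, and 482 and 462 CPM in the GFP-negative libraries. On the family sum the libraries of one sort lay close together. Rpl3, which lies near the peptidyl transferase centre, was at 493, 246, 345, 305 and 18.3 CPM in the control GFP-positive libraries, 481, 393, 487, 273 and 99.8 CPM in the knockout GFP-positive libraries, and 531 and 529.9 CPM in the GFP-negative libraries (control, knockout). Its family sum was 459.5, 490.1 and 501 CPM (lowest, median and highest of the GFP-positive libraries) and 531 and 530 CPM in the GFP-negative libraries. Rpl26, near the exit of the peptide tunnel, ran from 46.2 to 176 CPM in GFP-positive libraries alone and from 165 to 196 CPM as a family. Among the chosen pairs whose coding sequences were aligned, these 3 differed at 2 to 5 bases. Other families with a varying split, such as Rps18 and Rpl29, were not aligned.

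**Figure D2:**
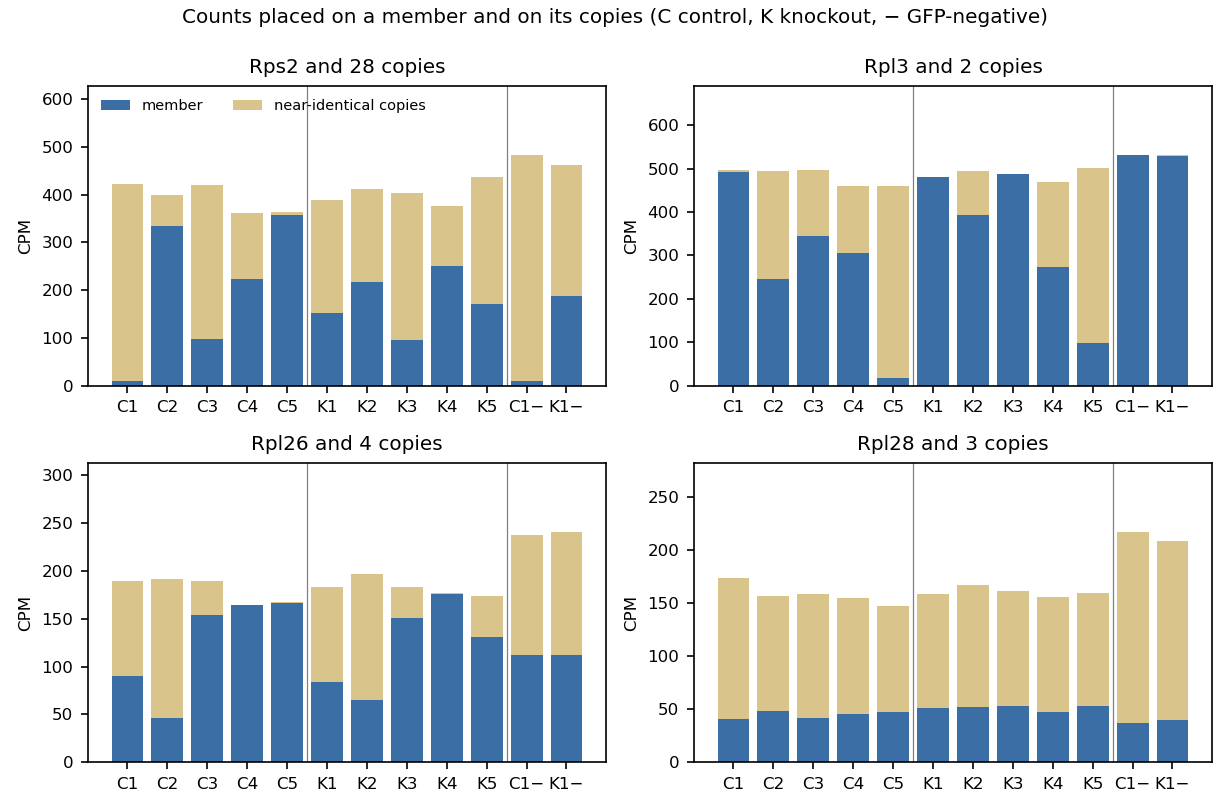
Stacked CPM of the member symbol and of its copies for Rps2, Rpl3, Rpl26 and Rpl28 in each library (C, control; K, knockout; numbers are replicate numbers; a minus sign marks GFP-negative). The boundary between member and copies moves between libraries for the first 3 (Rps2 holds 2.34 to 98.8% of its family), while the stack height moves less.

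The part of a family that falls on the member ranged over more than 20 percentage points among GFP-positive libraries in 9 of 67 families, including Rps2 (2.34 to 98.8%), Rpl3 (3.96 to 100%), Rpl26 (24.2 to 100%) and Rps18 (49.5 to 100%). Over these 9, the control GFP-negative library lay on average 1.16 points (at most 3.3) from control GFP-positive library 1. It lay 8.21 points from knockout library 1 and 13.1 to 41.1 points from the other 8. The knockout GFP-negative library lay 0.911 points (at most 2.5) from knockout GFP-positive library 1, 7.94 points from control library 1 and 11.5 to 34.7 points from the rest. For Rps2 the shares were 2.11 and 2.34% in the control pair and 40.8 and 39.1% in the knockout pair. The GFP-negative libraries thus resembled the library of their own genotype and number in how counts were split, a comparison made after the data had been seen. What the numbers stand for is not stated, and the part of this in the results was not tested.

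Knockout was compared with control in GFP-positive cells to ask whether loss of Arhgap35 altered the level of these mRNAs. None of the 83 members tested was called at an adjusted p of 0.05 (edgeR quasi-likelihood test with Benjamini-Hochberg adjustment over 17487 genes), where 6 of 17487 genes were called (0.0343%). DESeq2 and limma-voom called 0 members as well, and 2 members had an unadjusted p under 0.05 in edgeR, against 375 of all 17487 genes. The median log2 fold change over the members was 0.013, against -0.0016 over all genes, and single members ran from -0.56 to 0.30. On family sums 0 of 81 were called (0.0345% of genes), 0 had an unadjusted p under 0.05, and fold changes ran from -0.078 to 0.13. The 95% intervals of all 81 families lay between -0.29 (Rps27l) and 0.30 (Rpl13a), that is, within 1.23-fold. With the replicate number as a block, 0 members were called (0.0286% of genes) and 7 had an unadjusted p under 0.05, against 889 of the 17487 genes, the smallest adjusted p being 0.324.

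The 3 members with the smallest p were large-subunit proteins. Rpl10a, in the stalk by which spent tRNAs leave the ribosome, was at 44.2, 43.4, 47.9, 49.6 and 48.0 CPM in the control GFP-positive libraries, 41.0, 39.2, 41.3, 41.4 and 42.6 CPM in the knockout GFP-positive libraries, and 39.9 and 41.1 CPM in the GFP-negative libraries (control, knockout). All 5 knockout GFP-positive libraries lay below the 5 controls. Its log2 fold change was -0.18 ± 0.047 (SE; 95% interval -0.28 to -0.080; edgeR adjusted p = 1). Rpl10a-ps1 held most of its family, of which the member had 19.5%, and the log2 fold change of the family sum was -0.017 (95% interval -0.11 to 0.075). Rpl28 was at 40.7, 48.6, 41.5, 46.0 and 47.2 CPM in the control GFP-positive libraries, 51.4, 52.6, 52.9, 47.4 and 53.2 CPM in the knockout GFP-positive libraries, and 36.7 and 39.6 CPM in the GFP-negative libraries (control, knockout). The knockout GFP-positive libraries overlapped the controls through knockout library 4. Its log2 fold change was 0.20 ± 0.058 (SE; 95% interval 0.076 to 0.33; edgeR adjusted p = 1), and that of the family sum was 0.019 (95% interval -0.071 to 0.11). Rpl37 was at 55.2, 53.4, 55.3, 50.8 and 51.8 CPM in control and 52.2, 65.0, 58.3, 54.7 and 59.9 CPM in knockout GFP-positive cells, and the groups overlapped. The fitted difference was 0.12 ± 0.057 in log2 units (SE; edgeR adjusted p = 1). On the family sums neither Rpl10a nor Rpl28 had an unadjusted p under 0.05.

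Rps19, Rps16, Rpl28 and Rps9 lie within 20 Mb of Arhgap35 on its chromosome. Rps19, the gene most often mutated in Diamond-Blackfan anaemia and 8.27 Mb away, had a log2 fold change of 0.013 ± 0.066 (SE; 95% interval -0.13 to 0.16). Rps16 (11.7 Mb) and Rps9 (12.8 Mb) had -0.016 ± 0.089 and -0.0089 ± 0.045 (SE). None of these 3 values was larger than its standard error, whereas the value of the Rpl28 symbol, given above, was. The sign of Rps9 changed on log2 TPM and that of Rps16 on the family sum. The signs of Rps19, Rps16 and Rps9 each changed when 1 library was left out.

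**Figure D3:**
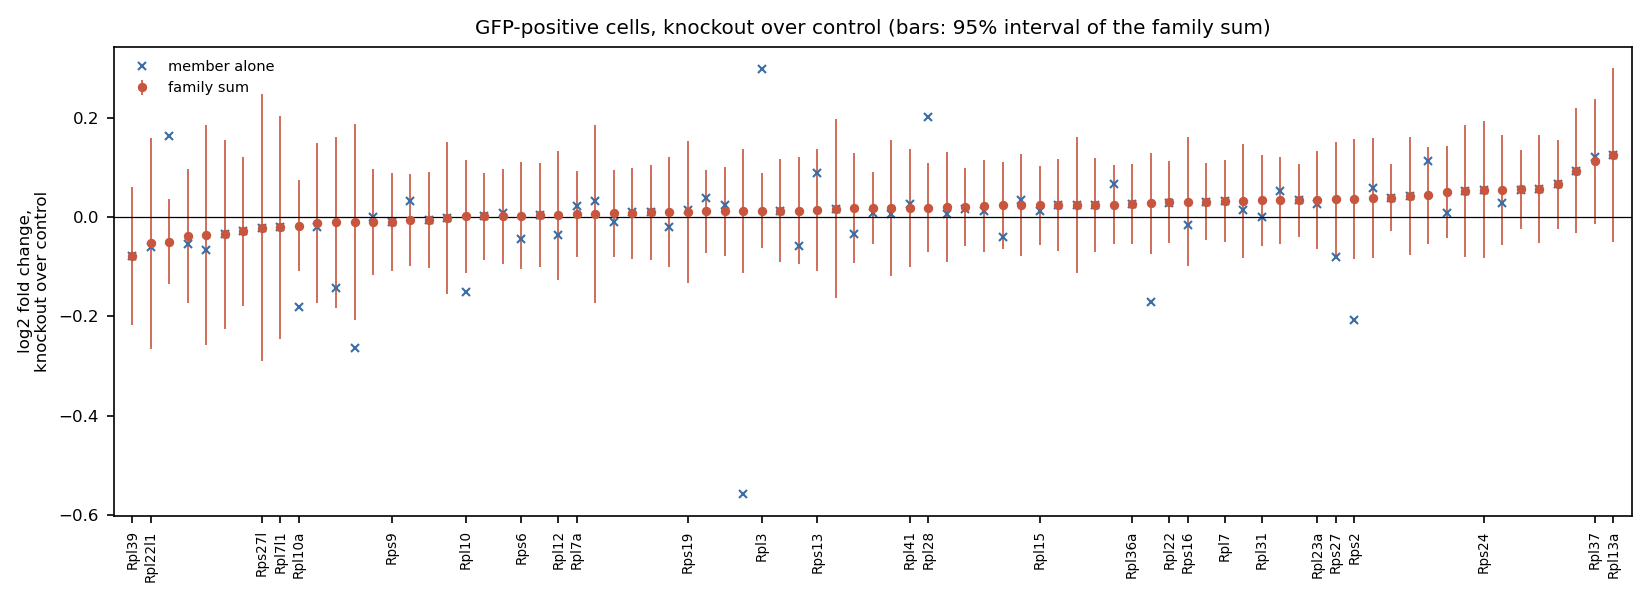
Log2 fold change of knockout against control in GFP-positive cells for 81 families, ordered by family value with some genes of the text labelled, with the family sum as a point with its 95% interval and the member symbol alone as a cross. Family sums lie between -0.078 and 0.13, and the member symbols alone spread further, from -0.56 to 0.30.

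GFP-positive cells were compared with GFP-negative cells, with genotype as a covariate, to place the members' levels in Hb9-labelled neurons against the rest of the ventral cord. Ribosomal protein mRNAs were mostly lower in GFP-positive cells. Of 84 members tested, 58 were lower (69.0%), 4 were higher and 22 were not called, where 31.8% of all 19763 genes were lower and 30.1% higher. The median log2 fold change was -0.34, against 0.018 over all genes. Among small-subunit members 26 of 36 were lower and 0 higher, with a median of -0.34, and among large-subunit members 32 of 48 were lower and 4 higher, with a median of -0.35. In 55 of 84 members (65.5%) all 10 GFP-positive libraries lay below both GFP-negative ones, as did 31.7% of all genes, and in 4 (4.76%) they lay above, as did 29.1%. With copies added, 73 of 81 families were lower and 0 higher (32.1% and 30.2% of genes), with a median of -0.39, and 76 of 81 (93.8%) had no overlap. The 8 families not called were Rpl14, Rpl15, Rpl22, Rpl35, Rpl38, Rpl41, Rpl6 and Rps4l. Among the 17 tested members that share under 25% of their 31-base sequences with other genes, 15 were lower, and the 2 others were Rpl21 and Rpl22. The Rpl21 symbol held only 14.4% of its family, which has 32 copies. That family was at 218 to 253 CPM in GFP-positive and 306 and 309 CPM in GFP-negative libraries. On family sums 16 of the 17 were lower. Rpl10l, Rpl39l, Rpl3l and Rps12l2 did not pass the filter on low counts here, nor in the knockout comparison, where Rps3a3 also failed it. With 1 GFP-negative library of each genotype, the spread is estimated mostly from GFP-positive libraries. In these bulk libraries, fewer cells of a type and less RNA per cell cannot be told apart.

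The sorts differed in other cell types. Progenitor and cycling markers summed to 406 to 528 CPM in GFP-positive and 1749 and 1923 CPM in GFP-negative libraries (8 of 8 lower in GFP-positive cells), and interneuron markers to 56.1 to 259 against 1140 and 1040 CPM (7 of 8 lower). Erythroid markers summed to 2.49 to 27.8 against 112 and 152 CPM (5 of 5 tested lower), mesenchymal markers to 2.88 to 11.6 against 16.2 and 15.8 CPM (3 of 4), and microglial markers to 0.588 to 2.52 against 8.34 and 7.82 CPM (3 of 3 tested). Endothelial markers summed to 1.26 to 11.9 against 5.42 and 7.78 CPM, and 1 of 4 was lower. Their part in the difference of the ribosomal protein genes was not tested.

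Among small-subunit proteins, Rps9, a primary binder of the small-subunit RNA, was at 337, 292, 311, 292 and 284 CPM in the control GFP-positive libraries, 305, 314, 300.3, 290.1 and 297 CPM in the knockout GFP-positive libraries, and 473 and 462 CPM in the GFP-negative libraries (control, knockout). All 10 GFP-positive libraries lay below both GFP-negative ones, with a log2 fold change of -0.63 (SE 0.051, edgeR adjusted p = 1.54e-07). It shared 17.0% of its sequence words with other genes and had no copy in the files. Rps3, which forms part of the mRNA entry and has 8.82% of its words shared, had a log2 fold change of -0.42 (SE 0.050, edgeR adjusted p = 5.9e-06). Rpsa, also known as the laminin receptor precursor, had -0.39 (SE 0.052, edgeR adjusted p = 1.7e-05), and Rps27a, made as a fusion with ubiquitin, -0.54 (SE 0.087, edgeR adjusted p = 9.36e-05). The last 2 are values of the symbol, which held 44.5% of the family for Rpsa and 17.5% for Rps27a. The Rpsa family was at 447 to 519 CPM in GFP-positive and 618 and 624 CPM in GFP-negative libraries. The Rps27a family was at 173 to 229 CPM against 274 and 260 CPM.

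Among large-subunit proteins, Rpl7 was at 414, 400.2, 395, 364 and 369 CPM in the control GFP-positive libraries, 402, 409, 392, 391 and 392 CPM in the knockout GFP-positive libraries, and 535 and 561 CPM in the GFP-negative libraries (control, knockout). The GFP-positive libraries lay below both GFP-negative ones without overlap. The fitted change was -0.48 (SE 0.044, edgeR adjusted p = 4.25e-07) on the log2 scale. The acidic stalk proteins, which recruit elongation factors, were lower as well, Rplp0 at -0.48 (SE 0.076, edgeR adjusted p = 0.000101), Rplp1 at -0.20 (SE 0.050, edgeR adjusted p = 0.00286) and Rplp2 at -0.42 (SE 0.046, edgeR adjusted p = 3.09e-06) on the log2 scale. Rpl11, which with Rpl5 and 5S RNA can bind Mdm2, had a log2 fold change of -0.38 (SE 0.067, edgeR adjusted p = 0.000208). The symbol held 37.4% of the Rpl11 family, which was at 240 to 275 CPM in GFP-positive and 332 and 333 CPM in GFP-negative libraries. Rpl5 itself was not called as a symbol, at -0.12 (SE 0.070, edgeR adjusted p = 0.155), and its family sum was -0.65 (SE 0.046, edgeR adjusted p = 3.37e-08).

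The 4 members called higher in GFP-positive cells all had copies, and all 4 lost the call or turned when copies were added. Rpl15 was at 181, 199, 203, 178 and 190.3 CPM in the control GFP-positive libraries, 196, 194, 191, 184 and 193 CPM in the knockout GFP-positive libraries, and 131 and 139 CPM in the GFP-negative libraries (control, knockout). Every GFP-positive library lay above both GFP-negative ones. Its log2 fold change was 0.50 (SE 0.050, edgeR adjusted p = 1.13e-06), while Rpl15-ps3, which has the same coding sequence, was at 189 to 227 CPM in GFP-positive and 273 and 268 CPM in GFP-negative libraries. The family sum was at -0.017 (SE 0.043, edgeR adjusted p = 0.763), with a 95% interval of -0.11 to 0.077. Rpl28 had a log2 fold change of 0.33 (SE 0.069, edgeR adjusted p = 0.000841) alone and -0.42 (SE 0.048, edgeR adjusted p = 3.85e-06) with Rpl28-ps1, which was at 97.4 to 133 CPM against 176 and 162 CPM. Rpl31 was at 20.9, 22.9 and 25.8 CPM (lowest, median and highest of the GFP-positive libraries) and 16.5 and 17.2 CPM in GFP-negative cells. It had 0.46 (SE 0.075, edgeR adjusted p = 0.000125) alone and -0.20 (SE 0.051, edgeR adjusted p = 0.00351) as a family, in which the symbol held 9.15%. Rpl12, on the stalk base, was at 19.0, 19.8 and 22.7 CPM against 16.9 and 17.7 CPM, with 0.22 (SE 0.071, edgeR adjusted p = 0.0143) alone and -0.20 (SE 0.069, edgeR adjusted p = 0.0235) as a family. No member was higher in GFP-positive cells on the family sum.

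Summing moved other members from not called to lower. Rps27 went from 0.39 (SE 0.62, edgeR adjusted p = 0.611) to -0.70 (SE 0.061, edgeR adjusted p = 2.52e-07), and Rps13 from 0.10 (SE 0.27, edgeR adjusted p = 0.764) to -0.42 (SE 0.065, edgeR adjusted p = 5.68e-05). Rps6 went from -0.17 (SE 0.18, edgeR adjusted p = 0.436) to -0.38 (SE 0.057, edgeR adjusted p = 5.06e-05), and Rps2 from 1.09 (SE 1.23, edgeR adjusted p = 0.475) to -0.25 (SE 0.065, edgeR adjusted p = 0.00454). Rpl3 went from -0.77 (SE 0.80, edgeR adjusted p = 0.433) to -0.13 (SE 0.040, edgeR adjusted p = 0.00963). Rpl41, the most abundant member per length, stayed uncalled, at 0.030 (SE 0.070, edgeR adjusted p = 0.731) alone and 0.033 (SE 0.065, edgeR adjusted p = 0.679) as a family. Rpl22, which the cell can replace by its paralogue Rpl22l1, was at 166, 176 and 189 CPM against 166 and 177 CPM in GFP-negative cells, with 0.057 (SE 0.045, edgeR adjusted p = 0.295). Its TPM were 282 to 336 in GFP-positive and 372 and 398 in GFP-negative libraries, and its log2 fold change on log2(TPM + 1) was -0.31. TPM per CPM was 1.64 to 1.88 for Rpl22 in GFP-positive and 2.25 in both GFP-negative libraries, against 2.92 to 3.03 and 2.93 to 2.95 for Rps9. The direction for Rpl22 thus depended on the unit.

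**Figure D4:**
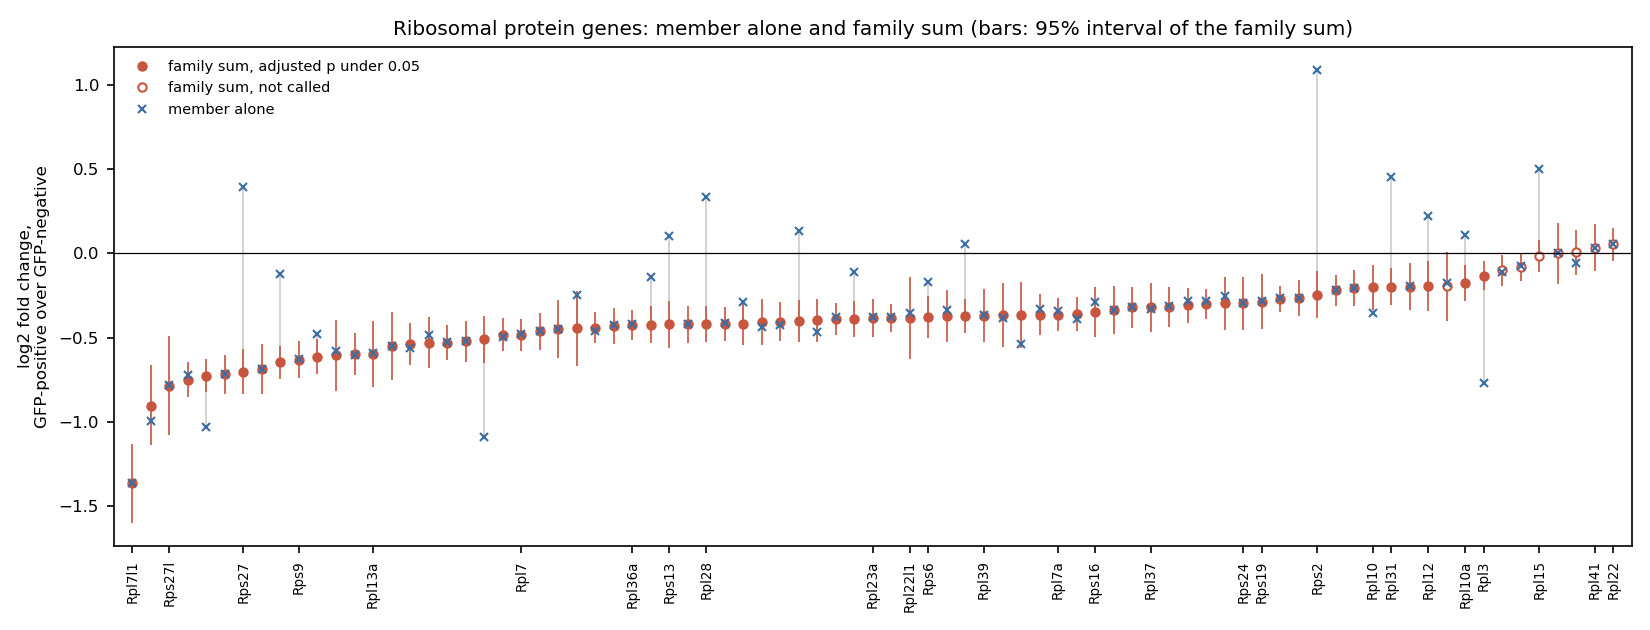
Log2 fold change of GFP-positive against GFP-negative cells for 81 families, with some genes of the text labelled, with family sums as points with 95% intervals and the member symbol alone as crosses. Of the 81 sums 73 were called lower and none higher, and the crosses above 0 include Rpl15, Rpl28 and Rps2.

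The result was also read within the libraries that carry replicate number 1, which have both sorts in each genotype and allow no test. There 66 of 84 members (78.6%) were lower in GFP-positive cells in both genotypes and 7 (8.33%) higher in both, against 42.4% and 41.2% of all genes. The median log2 differences were -0.28 in control and -0.37 in knockout, against -0.0095 and -0.00056 over all genes. As families, 78 of 81 (96.3%) were lower in both pairs, with medians of -0.31 and -0.40. With the replicate number as a block in the test, 54 members were lower and 4 higher (28.7% and 26.9% of all genes). Of the 4 called higher without the block, Rpl12 lost its call (0.16, edgeR adjusted p = 0.136), as it also did without the control GFP-negative library (0.17, edgeR adjusted p = 0.193), while Rps27 was called higher with it (1.14, edgeR adjusted p = 0.00163), against the sign of its family sum. In the control libraries alone 42 were lower and 2 higher (23.2% and 23.4% of all genes), and in the knockout libraries alone 52 and 3 (26.7% and 24.6%).

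Paralogues of core proteins were set against the gene they resemble. Rpl7l1, a relative of Rpl7, was at 39.4, 29.5, 28.1, 32.4 and 28.6 CPM in the control GFP-positive libraries, 37.0, 29.4, 27.9, 32.4 and 29.2 CPM in the knockout GFP-positive libraries, and 79.3 and 82.0 CPM in the GFP-negative libraries (control, knockout). No GFP-positive library reached a GFP-negative one, and the log2 fold change of -1.36 (SE 0.11, edgeR adjusted p = 2.14e-07) was the largest decrease among the members, at -1.08 with the replicate block. Among GFP-positive libraries the number 1 libraries of both genotypes were highest. In TPM it held 2.60 to 3.47% of the pair in GFP-positive and 5.17 to 5.25% in GFP-negative libraries. Rpl22l1 held 28.0 to 32.7% of its pair with Rpl22 in GFP-positive and 30.3 and 31.2% in GFP-negative libraries by TPM, which overlap. By counts with copies added the values were 12.3 to 15.5% and 17.9 and 18.1%, which do not. Its own log2 fold change was -0.36 (SE 0.12, edgeR adjusted p = 0.0164), and the call was lost without the knockout GFP-negative library (-0.24, edgeR adjusted p = 0.257) and in control libraries only (-0.22, edgeR adjusted p = 0.312). Rpl36al, which is outside the member rule, held 46.7 to 51.2% of its pair with Rpl36a in GFP-positive and 39.8 and 40.8% in GFP-negative libraries by TPM, and 42.8 to 46.8% against 36.3 and 37.6% by counts. Its level was not called, at 0.030 (SE 0.058, edgeR adjusted p = 0.687), whereas Rpl36a was lower, at -0.42 (SE 0.042, edgeR adjusted p = 9.66e-07). Rpl36a shared 88.3% of its sequence words with other genes, yet no copy was joined to it. How the placing of reads bears on this pair was not tested. Rps27l was lower at -0.78 (SE 0.14, edgeR adjusted p = 0.000214), from 9.70, 11.7 and 15.7 CPM (lowest, median and highest of the GFP-positive libraries) and 20.1 and 22.7 CPM in GFP-negative libraries. It held 9.0 to 12.1% of its pair with Rps27 in GFP-positive and 10.1 and 11.9% in GFP-negative libraries by counts with copies, and 54.8 to 90.6% against 82.2 and 87.2% by TPM of the symbols alone. Between knockout and control, none of these paralogues was called in GFP-positive cells.

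**Figure D5:**
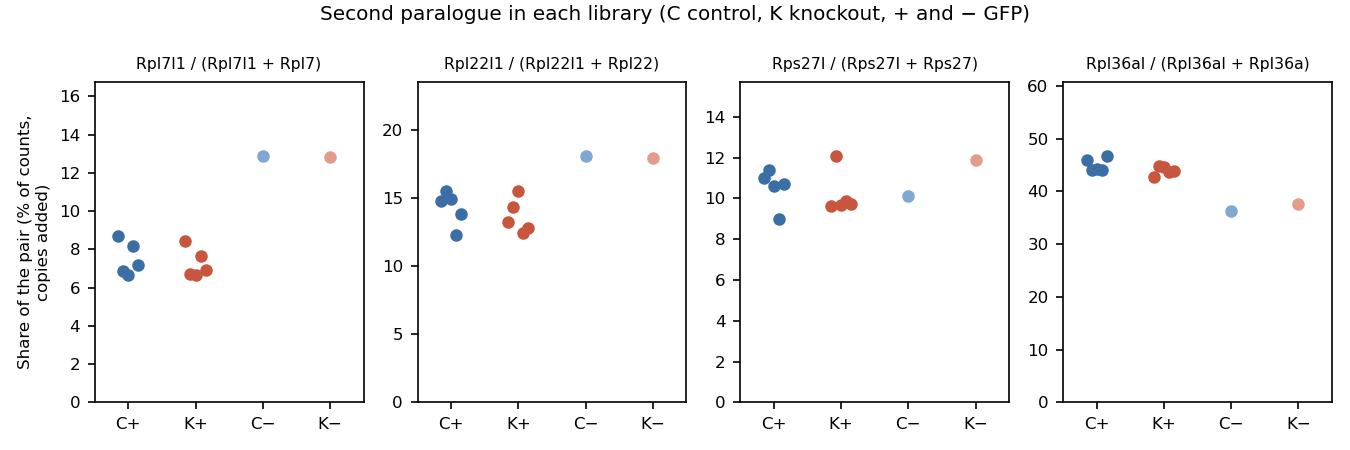
Share of the paralogue in its pair, in percent of counts with copies added, for Rpl7l1, Rpl22l1, Rps27l and Rpl36al in each library by group. Rpl7l1 holds 6.64 to 8.68% in GFP-positive and 12.8 and 12.9% in GFP-negative libraries, Rpl36al holds more in GFP-positive ones, and the genotypes overlap.

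Other genes of the translation apparatus were read from the same fit. Of the mitochondrial ribosomal proteins, encoded by separate nuclear genes, 36 of 77 (46.8%) were lower and 12 (15.6%) higher in GFP-positive cells. Over all genes 31.8% were lower and 30.1% higher. The median log2 fold change of the mitochondrial list was -0.15, against 0.018 over all genes. Mrps9 had the smallest p, at -0.86 (SE 0.065, edgeR adjusted p = 7.27e-08). A list of translation factors and other mRNAs, chosen as known to begin with a pyrimidine tract, had 15 of 18 lower (83.3%) and 0 higher. Its median was -0.26. By the rule for start windows above, 2 of the 12 with a window began with the tract. Tpt1, a growth-associated tumour protein, was at -1.07 (SE 0.074, edgeR adjusted p = 4.45e-08), and Npm1, the nucleolar chaperone nucleophosmin, at -0.66 (SE 0.033, edgeR adjusted p = 2.25e-09). Nap1l1, a histone chaperone, was at -0.61 (SE 0.042, edgeR adjusted p = 3.42e-08), and Hnrnpa1, a splicing factor, at -0.53 (SE 0.037, edgeR adjusted p = 4.08e-08). Gnb2l1, which encodes the small-subunit scaffold protein Rack1, was at -0.58 (SE 0.041, edgeR adjusted p = 4.54e-08), and Fau, a ribosomal protein made as a ubiquitin-like fusion, was lower as well.

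Of the ribosome biogenesis factors 11 of 26 (42.3%) were lower and 4 (15.4%) higher, with a median of -0.09, against 31.8% and 30.1% of all genes. Nop58 and Dkc1, core proteins of box C/D and box H/ACA particles, were lower at -0.60 (SE 0.036, edgeR adjusted p = 9e-09) and -0.76 (SE 0.052, edgeR adjusted p = 2.89e-08), and Bysl, needed for small-subunit assembly, was higher at 0.56 (SE 0.047, edgeR adjusted p = 2.11e-07). In growth control of ribosome synthesis 5 of 15 (33.3%) were lower and 5 higher, shares near those of all genes, with a median of 0.03, and 3 were lower with the replicate block. Larp1, which binds TOP mRNAs, was higher at 0.58 (SE 0.045, edgeR adjusted p = 9e-08) and Myc at 0.88 (SE 0.089, edgeR adjusted p = 1.25e-06), and Mycl was lower at -1.0 (SE 0.088, edgeR adjusted p = 5.41e-07). None of the genes of these lists was called between knockout and control in GFP-positive cells, or for the difference of the knockout effect between sorts. Differences between the lists were not tested.

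Whether the knockout effect differed between GFP-negative and GFP-positive cells was tested in a fit of 4 group means, which gives the unreplicated GFP-negative libraries the spread of the replicated groups. None of 84 members was called, where 5 of 19763 genes were (0.0253%), and 0 members had an unadjusted p under 0.05. With family sums 0 of 81 were called (0.0255%) and 0 had an unadjusted p under 0.05. With the replicate block 0 were called (0.00506%), and 1 member, Rpl10a, had an unadjusted p under 0.05. DESeq2 and limma-voom also called 0 members. The smallest p values belonged to Rps2, at a log2 difference of 4.41 ± 2.08 (SE; edgeR adjusted p = 1), Rpl10a at 0.22 ± 0.11 and Rpl10 at 0.42 ± 0.23 (SE; adjusted p = 1 for both). As families their differences were -0.0997, -0.031 and 0.012. On family sums all 81 differences lay between -0.15 and 0.20.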

How the data were processed

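The authors deposited estimated counts per gene symbol and a table of TPM, made with kallisto on mm10 per the submitters' processing notes, with no version stated. The kit does not keep strand, so a member and an antisense partner cannot be told apart. Estimated counts were rounded to whole numbers, scaled by TMM, filtered with filterByExpr and tested with edgeR 4.0.16 (robust quasi-likelihood, limma 3.58.1, R 4.3.3), with Benjamini-Hochberg adjustment over all genes tested at 0.05. DESeq2 1.42.0, limma-voom and limma on log2 TPM (pseudocounts of 1 and 0.1) were alternatives. A difference in log2 fold change is printed with its standard error. Floors cover counting error only, and intervals of fold changes come from the edgeR fit and include the scatter between libraries.

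Sequence sharing was counted on GENCODE M21 transcripts as 31-base words, and 87 of 88 members matched there. This may not be the index the authors used. A copy was joined to the member it most resembles if it shared at least 100 words and at least 20% of its words, or 60% for coding or long noncoding copies. Start windows came from RefSeq GRCm38.p6.

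Libraries of the same replicate number correlated over all genes at 0.180 to 0.292 after group means were removed, against -0.215 to 0.0535 for other pairs. From this the numbers were taken to pair the GFP-positive libraries, and a block was fitted as an alternative. Over the members alone the values overlapped, at -0.471 to 0.825 for the same number and -0.72 to 0.885 for other pairs. Counts of every pair of libraries in a group differed by more than sampling noise (chi-square over degrees of freedom, 8.59 to 26.6).

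Members and lists were chosen with earlier results of these data known. Genes were named by role (paralogue pairs), distance to Arhgap35 (20 Mb), the 5 highest and lowest by TPM, the smallest p in each comparison, the largest spread, and up to 4 called genes of each other list. Rpl5, Rpl11, Rpl26, Rplp0, Rplp1, Rplp2, Rps3, Rps18, Rpsa, Rps27a and the families not called were named outside this rule, after their values were seen. Some genes that the rule names are not reported here.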

Additional observations from a re-analysis of the deposited data

Results flagged for a closer look

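In 63 sets of 5 GFP-positive libraries, for named members in CPM, 2 libraries stood apart from the rest of their group by Dixon's criterion, where chance alone marks about 1 in 20 groups. Rps3a3 was at 31.37 CPM in control GFP-positive library 4 and at 0 to 0.17 CPM in the other 4 controls. Rps27l was at 15.68 CPM in knockout GFP-positive library 2 and at 11.25 to 11.7 CPM in the other 4 knockouts.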

How the results depend on the processing

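Of the results for the whole list, 174 of 176 values under alternatives stayed within the range set for them, and for single genes and shares 955 of 1046 did. The range was wide for counts: 48 members lower in GFP-positive cells, against 58, still lay within it. The 176 also include counts of 0 members called between knockout and control, which had little room to move. The count of members higher in GFP-positive cells, 4, became 0 with family sums and 2 in control libraries only. The share of counts became 1.70% (control) and 1.72% (knockout) with family sums and 3.75 and 3.81% by TPM, and the paralogue shares became 13.9% for Rpl22l1, 7.07% for Rpl7l1 and 44.2% for Rpl36al by counts. The causes were not tested.

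Leaving out 1 library at a time gave 48 to 58 members lower and 3 to 5 higher in GFP-positive cells, with medians of -0.357 to -0.307, and medians of -0.0122 to 0.0398 between knockout and control. For single genes that changed sign, the values between knockout and control were -0.094 to 0.038 for Rps16, -0.0315 to 0.0421 for Rps19 and -0.032 to 0.0309 for Rps9. Between the sorts they were -0.0207 to 0.0757 for Rpl36al, -0.0124 to 0.0691 for Rpl41 and -0.402 to 0.0823 for Rps6. They were -0.00219 to 0.22 for Rpl10a and -0.0897 to 4.32 for Rps2. Rpl36al, Rps6, Rpl10a and Rps2 turned without the control GFP-negative library, and Rpl41 without the knockout one. Rps3a3 ran from 0 to 10.4 and was at 0 without the control GFP-negative library, with no change of sign.

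With family sums, chosen after the data had been seen, the log2 fold change between knockout and control was 0.031 for Rps16. Between the sorts it was -0.702 for Rps27, -0.419 for Rpl28, -0.422 for Rps13, -0.176 for Rpl10a, -0.0165 for Rpl15, -0.199 for Rpl31, -0.195 for Rpl12 and -0.246 for Rps2, and for the difference of the knockout effect -0.0997 for Rps2 and -0.0308 for Rpl10a. On log2 TPM, Rps9 was at 0.00122 or 0.00123 between knockout and control, and Rpl22 at -0.311 or -0.312 between the sorts, by pseudocount. With library size only, Rpl36al was at -0.0233 and Rpl41 at -0.0226. In knockout libraries only, Rpl36al was at -0.0183, Rps6 at 0.0845 and Rps2 at -0.0869.

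With the replicate number as a block, which the pairing of the libraries allows, members called stayed at 0 between knockout and control and went from 58 lower to 54 in the comparison of sorts. Rps3a3 changed to -0.0672 and Rps2 to -0.288 there, Rpl12 and Rpl10 lost their calls, and Arhgap35 lost its call between knockout and control (edgeR adjusted p = 0.162), and no other call on a named gene was lost. Rps27 gained a call as higher with the block (1.14). Rpl12 also lost its call with library size only and within either genotype, and Rpl28 in control libraries only. Calls as lower were lost as well, for Rps16 within either genotype (-0.288 in control, -0.273 in knockout). Rps19, Rpl10 and Rpl22l1 lost theirs in control libraries only, and Rps24 and Rpl37 in knockout libraries only. All of these kept their sign there. Depth limited what could be read for Rpl10l, Rpl39l, Rpl3l and Rps12l2, which were at 0 counts in most libraries.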
